A study of Drosophila melanogaster with 9 samples.

Results

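Mid-width autosomal peaks of H3K27me3 were the peaks on chromosome arms 2L, 2R, 3L and 3R that were at least 2000 and under 10000 bp wide. They were chosen by width alone, separately in each of 6 deposited broad peak lists, so the number of peaks in that width range is a description and was not tested. The 6 lists held 6281 such members among 34948 peaks on the 4 arms (18%) and 42221 peaks in all (14.9%). Peaks under 2000 bp are called narrow here and those of 10000 bp or more wide. The 4 arms carried 27546 narrow and 1121 wide peaks.

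The series compared Drosophila melanogaster larvae of the third instar, raised at 25 °C, in 3 groups of 2 libraries each. These were wild-type males, roX knockout males with the genotype roX1[ex6]roX2[9-4], and wild-type females. Whole larval tissue was ground and fixed, so each library mixes many cell types, and a smaller number of marked cells cannot be told apart from less of the mark per cell. Whether the 2 libraries of a group are from separate animals is not in the labels, and p-values then measure only the spread between these libraries, which may be technical.

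H3K27me3 is laid down by Polycomb repressive complex 2 and marks silenced developmental genes. In flies it forms long domains around Hox and other patterning genes, anchored at Polycomb response elements, as well as shorter stretches around single genes. The roX RNAs are noncoding RNAs of the male dosage compensation complex, which acts on the X chromosome, whereas all peaks described here are autosomal.

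The lists carry no read counts, so depth is unknown, and a stretch without a peak may still carry the mark below what that library could detect. Whole lists held 4784 to 5406 peaks in wild-type males, 6189 to 6327 in the knockout and 8896 to 10619 in females. As a check of sex, peaks on the Y chromosome covered 235.6 to 301.4 kb in wild-type males, 166.1 to 166.6 kb in the knockout and 25.2 to 30.4 kb in females. Peak lists cannot check the loss of roX RNA. The list lengths and Y coverage differed between groups, and the part of depth or calling in any result below was not tested.

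Wild-type males had 1024 and 916 mid-width autosomal peaks, knockout males 1007 and 890, and wild-type females 1060 and 1384. Knockout and wild-type males overlapped, and the higher female number came mainly from the second library. The mean number in females was above that in wild-type males by 0.33 on the log2 scale, by 0.13 without the second female library, and by -0.27 (females lower) among peaks with a deposited −log10 q of at least 3. The members made up 23.4% to 23.7% of the autosomal peaks in wild-type males, 17.2% to 18.8% in the knockout and 14.3% to 15.8% in females. Narrow peaks numbered 2799 to 3076 in wild-type males, 4123 to 4177 in the knockout and 6168 to 7203 in females.

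In length, members covered 3.93 and 3.48 Mb in wild-type males, 3.72 and 3.39 Mb in the knockout, and 3.87 and 5.01 Mb in females. The groups overlapped in this measure also. Wide peaks covered 7.51 to 7.63 Mb in wild-type males, 4.12 to 4.99 Mb in the knockout and 4.04 to 4.25 Mb in females, without overlap between wild-type males and the others. The share of the covered autosomal length that lay in members was 26.1% to 27.9%, 30.4% to 31.4% and 29.4% to 33.4% in the same order.

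**Figure D1:**
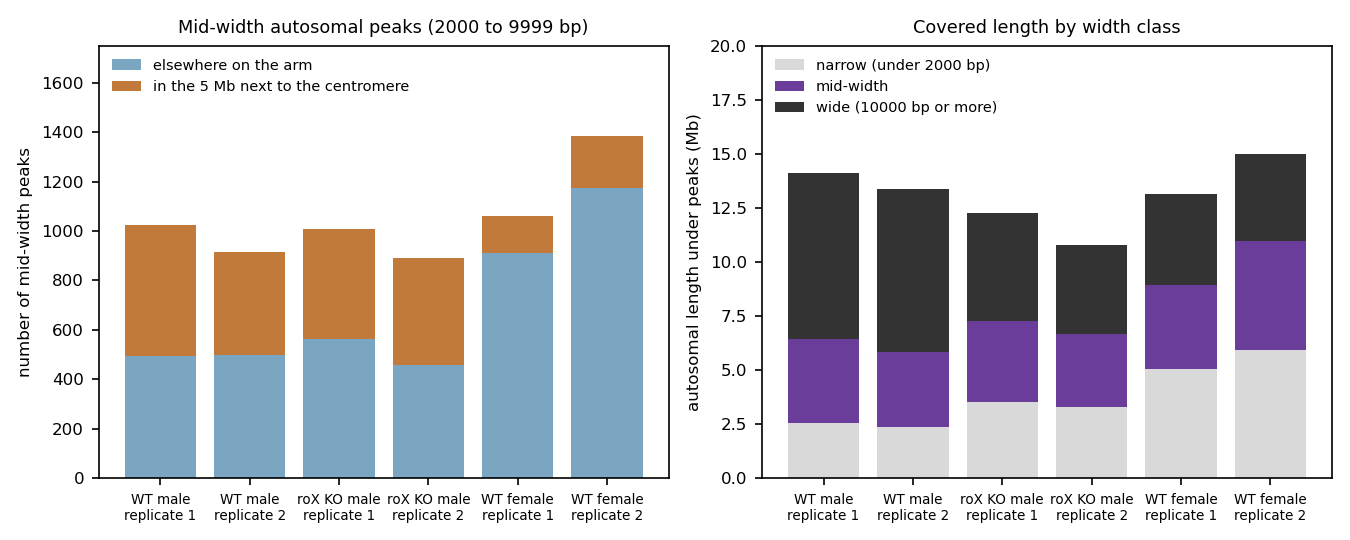
Number of mid-width autosomal peaks per library, split by position on the arm (left), and autosomal length under narrow, mid-width and wide peaks in Mb (right), 1 bar per library. Member numbers run from 890 to 1384, the orange portion next to the centromere is smaller in both female libraries (147 and 212 peaks), and the wide portion is largest in the wild-type males.

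The members' median width was 3323 and 3179.5 bp in wild-type males, 3067 and 3193.5 bp in the knockout, and 2999 and 2965 bp in females. In the 6 lists, 41.2% to 51.2% of members were under 3000 bp wide. The authors' fold enrichment had a median of 1.73 to 1.90 over the members of a list, against 1.65 to 1.81 over its narrow peaks and 2.07 to 2.58 over its wide peaks. The part of members with a deposited −log10 q of at least 3 was 25.0% to 26.3% in wild-type males, 14.8% to 17.5% in the knockout and 16.8% to 17.0% in females.

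The width bounds cut through a continuous range. From 1900 to under 2000 bp there were 53 to 93 peaks per list, just outside, and from 2000 to under 2100 bp there were 45 to 118, just inside. At the upper bound, 16 to 27 peaks per list were from 9000 to under 10000 bp wide and 11 to 24 from 10000 to under 11000 bp. The median fold was 1.69 to 1.84 just below the lower bound and 1.69 to 1.86 just above it.

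Position along the arm separated the sexes, a comparison that was added after the data were seen. The 5 Mb of each arm next to the centromere, which make up 18.4% of the span of the 4 arms, held 528 and 417 members in wild-type males, 442 and 433 in the knockout, and 147 and 212 in females. These were 45.5% to 51.6% of the members in wild-type males, 43.9% to 48.7% in the knockout and 13.9% to 15.3% in females. The 2 groups of males overlapped, whereas every male library was above both female libraries. With 2 libraries a side the smallest two-sided p of an exact permutation is 0.33, so no test is given.

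Narrow peaks showed a like difference, with 30.4% to 36.0% next to the centromere in males and 13.3% to 13.9% in females. Outside these 5 Mb the order was turned. Wild-type males had 496 and 499 members there, knockout males 565 and 457, and females 913 and 1172. The groups of males overlapped, and both female libraries lay above all 4 male libraries.

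Most members recurred in the other library of the same group. A member counted as met when at least 1 bp lay under a peak of any width in the other list. In wild-type males 95.3% and 97.8% of the members of 1 list met a peak of the replicate, in knockout males 90.9% and 97.4%, and in females 87.6% and 93.2%. For narrow peaks these shares were 53.6% to 63.8%, 43.5% to 54.6% and 42.2% to 52.8%. A wider peak meets others more easily, so the difference between width classes is given without a test.

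Wild-type male members were also compared with the peaks of the other groups. In knockout lists 80.4% to 88.6% met a peak, and the widest peak they met was mid-width for 33.5% to 45.0% and narrow for 40.1% to 49.4%. In female lists 70.3% to 82.5% met a peak, mid-width for 26.9% to 38.5% and narrow for 42.7% to 44.8%. In the replicate, the widest peak met was mid-width for 61.8% to 67.6% and narrow for 21.8% to 27.5%. The ranges for mid-width peaks and for narrow peaks between groups do not overlap those between replicates. How many members met a peak depended on what counted as meeting. With at least 50% of the member covered the mean share was 45.3% in knockout lists and 36.1% in female lists, and with peaks of −log10 q of at least 3 it was 33.0% and 22.2%.

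The members that were missed differed in position between the comparisons. In the 2 wild-type male lists, 149 and 108 members met no peak in either female list, and 74.5% and 68.5% of these lay in the 5 Mb next to the centromere. By contrast, 58 and 76 met no peak in either knockout list, of which 19.0% and 15.8% lay there. In the opposite direction 191 and 300 female members met no peak in either wild-type male list, with 4.19% and 4.67% next to the centromere. In knockout males 49 of 1007 and 28 of 890 members met no peak in either wild-type male list. In all these comparisons the missed members had median widths of 2374 to 2745 bp, below the median of their list. Their median fold was also below that of the other members. The part of width and fold in these absences was not tested.

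Many knockout and female members lay where wild-type males had a wide peak, a result that was added after the data were seen. In the 4 pairs of a knockout and a wild-type male list, 29.3% to 39.3% of the knockout members met a wide wild-type peak. Between the knockout replicates the share was 3.97% in 1 direction and 16.6% in the other. Outside the 5 Mb next to the centromere it was 44.3% to 66.5% for knockout members in wild-type male lists, and 4.96% and 27.6% between replicates. Of female members, 30.7% to 36.6% met a wide peak of wild-type males, against 5.76% and 6.72% between the female replicates. In the reverse direction 0.586% to 1.75% of wild-type male members met a wide knockout peak and 0.488% to 0.873% a wide female peak. Of narrow peaks, 6.08% to 10.7% in knockout males and 4.78% to 5.67% in females met a wide wild-type male peak.

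**Figure D2:**
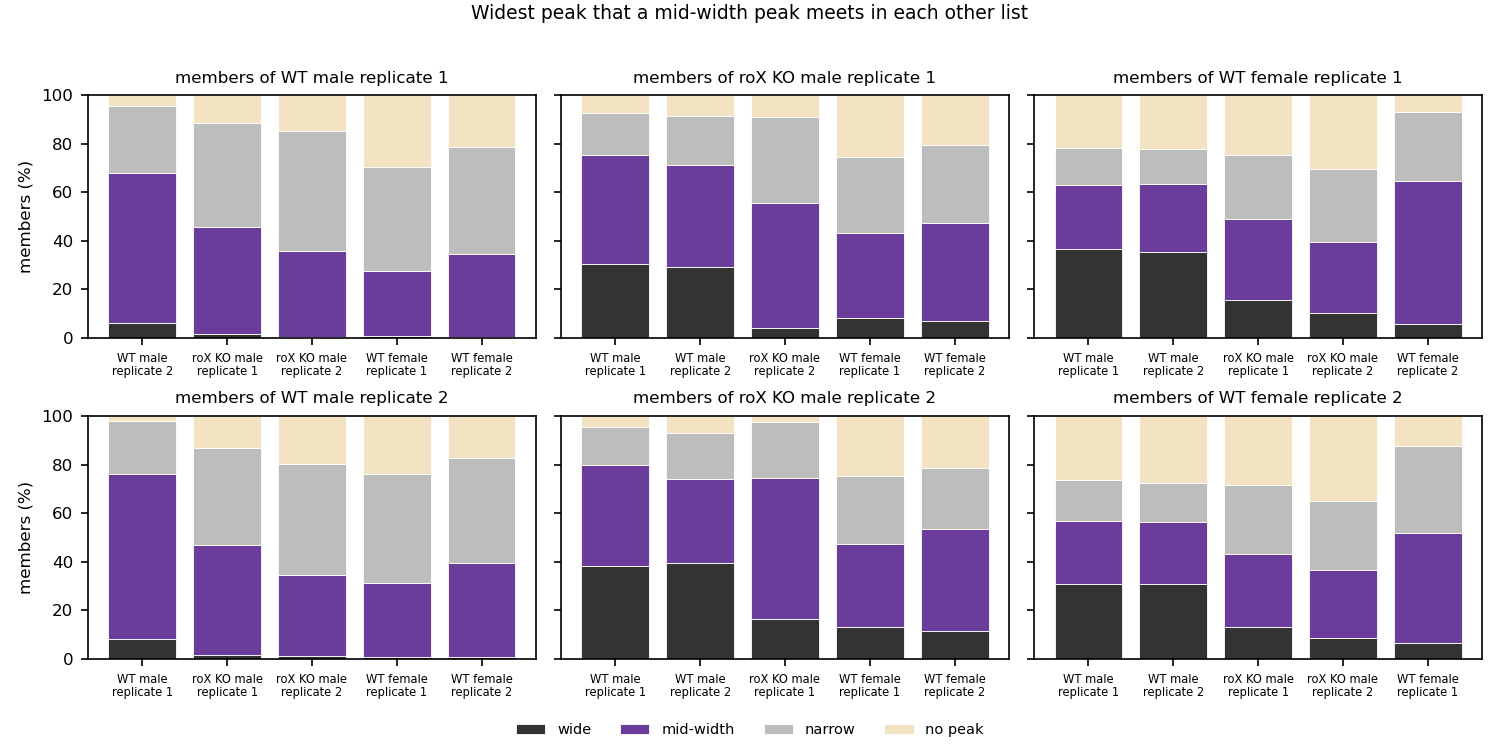
Widest peak met by the mid-width peaks of each list in every other list, as a percent of that list's members, with 1 panel per list and 1 bar per other list. The dark portions (wide peaks) reach 29.3% to 39.3% for knockout members in wild-type male lists and 0.586% to 1.75% for the reverse.

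These members lay within wild-type male domains in different ways. Between 295 and 350 members of a knockout list lay in the wide peaks of a wild-type male list. For 44.0% to 53.8% of them, the same wild-type peak also met a wide knockout peak, so the member lay beside a domain that was still wide. Between 62 and 88 wide wild-type peaks (30.1% to 44.2%) met knockout members and no wide knockout peak. For females 66 to 90 wide wild-type peaks (33.2% to 42.3%) met members and no wide female peak. These wild-type peaks had a median width of 14.1 to 16.3 kb over the 8 pairs of lists and held up to 10 members each.

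Joined across the 6 lists, overlapping members formed 2685 separate regions. Of these 1263 (47.0%) held a member of a single list and 74 (2.76%) members of all 6. Peaks of any width were present in all 6 lists at 1127 regions (42.0%). Of the 74 regions with members in all 6 lists, 35 lay in the 5 Mb next to the centromere, 63 met no wide peak in any list, and the arms held 19 (2L), 18 (2R), 23 (3L) and 14 (3R).

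The longest of these regions with no wide peak was on 3L at 3655767 to 3675364 (dm6) and overlapped the gene CG43098. Peaks of any width covered 79.3% and 88.8% of it in wild-type males, 35.6% and 33.8% in the knockout, and 49.1% and 65.0% in females. Both knockout libraries were below the other 4. A similar order was seen over Lim3, which encodes a LIM homeobox protein of motor neuron identity. Its region on 2L at 19084694 to 19099240 was covered over 82.5% and 69.4% in wild-type males, 21.3% and 15.1% in the knockout, and 62.7% and 62.2% in females. The second Lim3 region, at 19100911 to 19113977, reached 88.0% and 86.2%, 62.5% and 34.1%, and 84.5% and 67.5% in the same order.

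On 2R a region over CG13325 had another order, with 47.1% and 38.8% covered in wild-type males, 46.5% and 77.4% in the knockout, and 85.8% and 70.5% in females. Both female libraries were above both wild-type male libraries there, and the knockout libraries lay apart from each other. A further 2R region between CG40191 and Yeti, 25.4 kb from the nearest gene, was covered over 85.1% and 75%, 76.4% and 65.6%, and 42.0% and 34.0%. Both female libraries were below all male libraries at this region.

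Few regions belonged to 1 group alone. Members in both libraries of a group, with no peak of any width in the other 4 lists, marked 1 region in wild-type males, 3 in the knockout and 15 in females. Of the 15 female regions, 12 met a gene and 1 lay next to the centromere. The longest of them was on 2L at 6690946 to 6698406, over Tsp, which encodes the matrix protein thrombospondin. It was covered over 45.2% and 76.6% in females. The next on 3L, at 730518 to 736960, lay between CG13896 and hng3 and was covered over 83.7% and 50.6%. The 3 knockout regions overlapped CG40006, CG40470 and CG30158 and were 2.74 to 3.23 kb long. The wild-type male region lay between fj and Ote, 1.92 kb from the nearest gene.

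Most members stood far from any wide domain, yet nearer to one than narrow peaks were. The median gap to the nearest wide peak of the same list was 157.3 and 141.7 kb in wild-type males, 174.2 and 276.6 kb in the knockout, and 107.6 and 172.6 kb in females. For narrow peaks the medians were 215.0 and 210.4 kb, 262.7 and 387.6 kb, and 297.8 and 329.2 kb. Members were nearer in 6 of 6 libraries, by 0.23 ± 0.12 on the log10 scale (SD of the library differences), or 1.68-fold. The exact permutation test over the 6 paired libraries (sign flips, two-sided) gave p = 0.031, the smallest it can give. With wide peaks taken from 15000 bp and members up to that width, the difference was -0.079 with p = 0.28125 in the same exact test, so the call depends on the upper width bound. The difference was larger, with the same p of 0.031 in that exact test, without the 5 Mb next to the centromere (-0.46), for members from 3000 bp (-0.41) and for peaks with a −log10 q of at least 3 (-0.54).

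Within 10 kb of a wide peak lay 13.7% and 17.8% of the members in wild-type males, 17.1% and 14.4% in the knockout, and 20.9% and 16.2% in females. The groups overlapped. The same share was 6.18% and 6.43%, 4.57% and 4.27%, and 3.37% and 3.07% of the narrow peaks. The difference of 12 ± 3.37 percentage points (SD, n = 6 libraries) was positive in 6 of 6 libraries, with p = 0.031 in the exact permutation test. Between 51.3% and 65.8% of the members of a list lay beyond 100 kb. Away from the centromere the median gap of members was shorter, 57.2 to 124.9 kb.

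**Figure D3:**
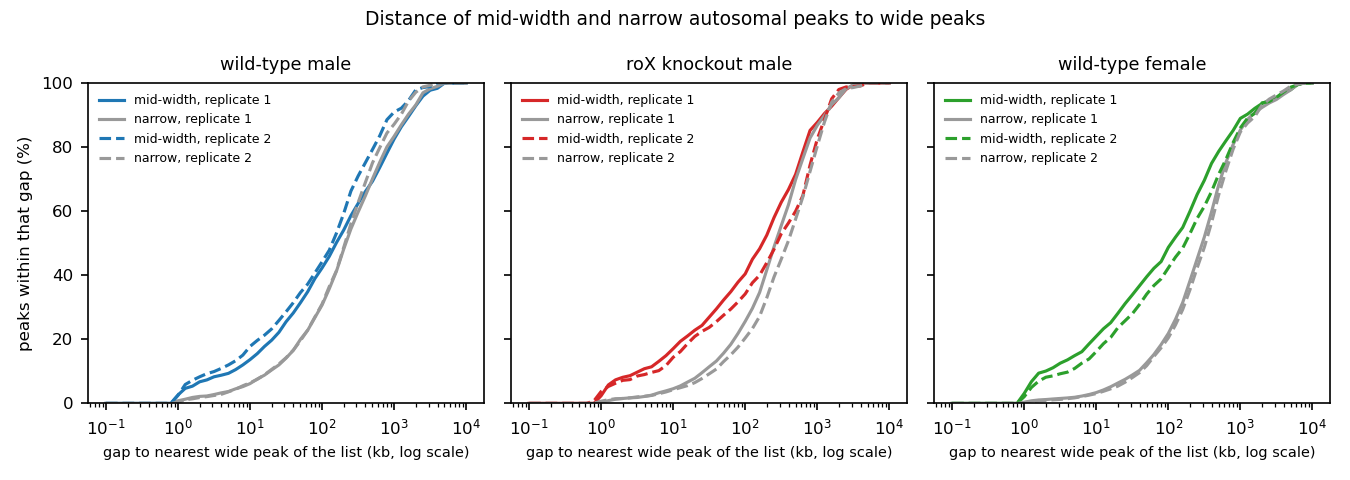
Cumulative percent of mid-width (coloured) and narrow (grey) autosomal peaks against the gap to the nearest wide peak of the same list, in kb on a log axis, with 1 panel per group and 1 line per library. The coloured lines run above the grey ones up to gaps of about 100 kb in the 6 libraries, and at 10 kb they reach 13.7% to 20.9% against 3.07% to 6.43%.

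Members were less often genic than narrow peaks. At least 1 bp of a protein-coding gene was met by 41.2% and 43.7% of members in wild-type males, 42.4% and 39.0% in the knockout, and 56.5% and 60.3% in females. Both female libraries were above the 4 male libraries, while the groups of males overlapped. The narrow peaks of the same lists met a gene in 51% and 51.3%, 53.5% and 46.2%, and 62.6% and 64.0%. The mean difference was -7.56 ± 2.67 percentage points (SD, n = 6 libraries) and was negative in 6 of 6, with p = 0.031 in the exact permutation test. Among peaks with a −log10 q of at least 3 it was 0.0893 points, with p = 0.9375 in the same exact test. Without the 5 Mb next to the centromere it was -3.27 points, with p = 0.031 in the same exact test.

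Counted in bases, 35.0% and 37.2% of the members' length lay in gene bodies in wild-type males, 35.2% and 31.9% in the knockout, and 45.0% and 48.1% in females. Gene bodies take up 66.3% of the 4 arms. The shares were lower than those of narrow peaks by 12.6 ± 1.35 points in 6 of 6 libraries, with p = 0.031 in the exact permutation test. These 4 comparisons of members with narrow peaks formed 1 family of related measures. Each exact permutation p was 0.031, the smallest that test can give. Benjamini-Hochberg adjustment leaves 4 equal p-values as they are, so the adjusted values of 0.031 add nothing. The share that met a gene differed by position. In the 5 Mb next to the centromere 24.0% to 27.4% of members met a gene in the 6 libraries, and elsewhere 56.5% to 60.1% in wild-type males, 52.1% to 54.2% in the knockout and 61.3% to 66.6% in females.

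Of 11645 protein-coding genes on the 4 arms, 143 and 150 had at least 50% of the body under members in wild-type males, 123 and 111 in the knockout, and 272 and 405 in females. These were 1.23% and 1.29%, 1.06% and 0.953%, and 2.34% and 3.48% of the genes. Wide peaks covered 380 to 384 genes to that extent in wild-type males, 195 to 240 in the knockout and 200 to 209 in females. In both measures the females did not overlap the wild-type males, and knockout males were below wild-type males. The genes under members had median lengths of 1.61 to 1.91 kb against 2.08 kb for all genes. A member reaches 50% of a short gene more easily than of a long gene, so the rule favours short genes. Nothing is drawn from their length.

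At least 50% of the body was under members in all 6 lists for 4 genes. One was repo, the homeobox gene that defines glia, on 3R at 18236192 to 18239602. Members covered 100% and 80.0% of it in wild-type males, 90.6% and 90.0% in the knockout, and 78.6% and 90.1% in females, so the groups overlapped. Hey, a basic helix-loop-helix gene of the Notch pathway on 2R, was covered over 100% and 100%, 100% and 94.2%, and 100% and 92.5%. The short gene CG44812 was covered completely in every list. Muc68E, a mucin gene with internal repeats, was covered over 64.2% to 67.6%, and its value is uncertain because reads from repeats may map to several places.

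Knockout and wild-type males were compared gene by gene to ask where a mid-width stretch had no counterpart, or a wide domain had a mid-width one. The genes named for these patterns were picked from the same lists, so their values are given as descriptions with no test. Of 83 genes under members in both wild-type male lists, 7 (8.43%) had no peak of any width in either knockout list. They were rempA, an intraflagellar transport gene, LS2, a splicing factor gene, tbrd-3, a bromodomain gene, the lectin gene lectin-21Cb, and Alp10, CG14499 and CG34433. Members covered 71.3% and 66.0% of rempA in wild-type males, and peaks of any width covered 34.2% and 39.2% in females. For LS2, members covered 95.0% and 100% in wild-type males, and peaks of any width 26.9% and 0% in females. The reverse pattern was met by 0 of 46 genes (0%).

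Of 360 genes under wide peaks in both wild-type male lists, 30 (8.33%) were under members in both knockout lists, and 0 of 186 (0%) showed the reverse. They included hh, which encodes the Hedgehog ligand, on 3R at 23128169 to 23141906. Wide peaks covered 97.9% of hh in each wild-type male library, and members covered 56.3% and 61.9% in knockout males, beside 35.4% and 0% under wide peaks. In females wide peaks covered 95.3% and 93.9% of hh, so hh was under wide peaks in both female libraries. Poxm, a Pax gene of muscle development, was wholly under wide peaks in wild-type males and 89.1% and 54.2% under members in the knockout. For Awh, a LIM homeobox gene, the share under members was 62.1% and 56.3% in knockout males. The POU gene vvl had 70.2% and 59.3%, and esg, a Snail family gene of stem cell maintenance, 83.6% and 80.2%. In females members covered 55.4% and 50.5% of Poxm, 39.4% and 34.8% of Awh, 60.4% and 60.6% of vvl, and 0% and 75.6% of esg. Poxm and vvl, like others of the 30, were thus under members in both female lists as well.

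Wild-type females and males were compared in the same way. Of the 360 genes under wide peaks in both wild-type male lists, 75 (20.8%) were under members in both female lists, and 2 of 173 (1.16%) showed the reverse. These 2 were Ets21C, an ETS factor gene of stress responses, and nAChRbeta3, a nicotinic receptor subunit gene. Ets21C was covered by members over 93.4% and 93.3% in wild-type males and 74.8% and 81.6% in the knockout, and by wide peaks over 99.2% and 98.9% in females.

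Among the 75 was tin, the NK homeobox gene of heart formation, on 3R at 21378977 to 21381970. It was wholly under wide peaks in all 4 male libraries and wholly under members in both female libraries. The same split of males and females was seen for sim, the regulator of the nervous system midline. Wide peaks covered 98.3% and 98.4% of sim in wild-type males and 98.2% and 96.7% in the knockout, and members 81.5% and 82.0% in females. Sox15 was wholly under wide peaks in the males and 87.6% and 83.5% under members in females. The forkhead gene fd96Ca had 89.2% and 90.2% under members in females and was wholly wide in the males. The GATA gene pnr had 74.0% and 73.7% and the Iroquois gene caup 74.7% and 77.8% under members in females.

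Of 163 genes under members in both female lists, 19 (11.7%) had no peak in either wild-type male list, against 1 of 83 (1.2%) in the reverse direction. The latter was E(spl)m2-BFM, a Bearded family gene of the Notch-regulated E(spl) complex. It was covered by members over 100% and 87.6% in wild-type males, and by narrow peaks over 34.4% and 0% in the knockout. The female genes named by covered length were CG3955, CG14565, CG14297, CG14354, CG15546 and CG32834. CG3955 and CG14297 were wholly covered in both female libraries, with no peak in any of the 4 male libraries. CG14354 was wholly covered in both females and over 51.9% and 0% in knockout males.

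**Figure D4:**
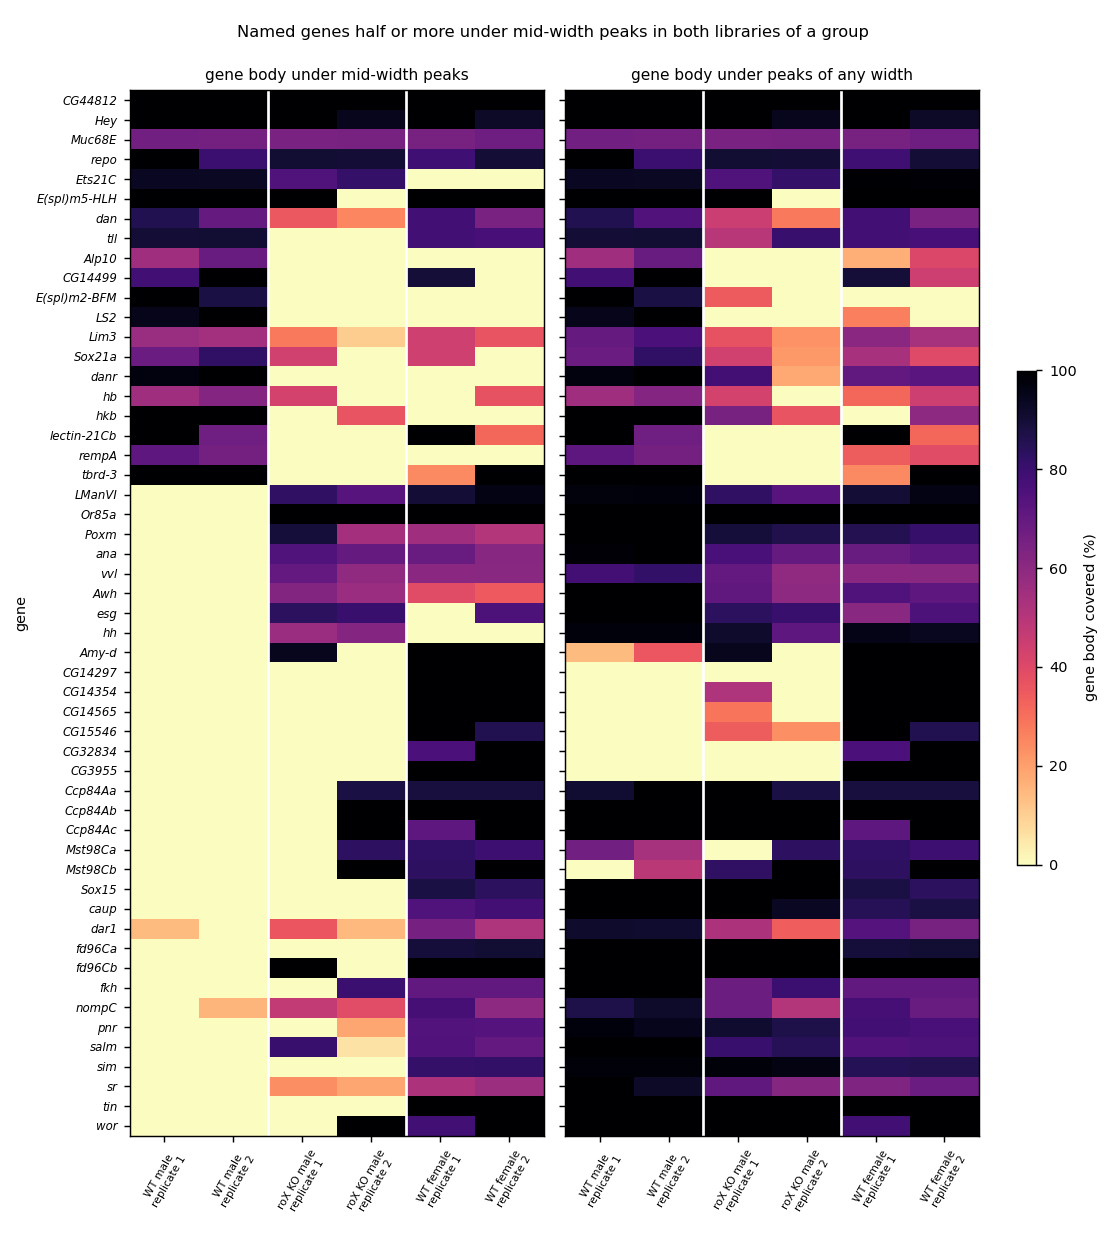
Percent of the gene body under mid-width peaks (left) and under peaks of any width (right), for named genes with at least 50% under members in both libraries of a group, 1 row per gene and 1 column per library. The genes hh, Poxm, Awh, vvl and esg are pale on the left and dark on the right in wild-type males, where wide peaks covered them, and CG3955 and CG14297 are dark only in the female columns.

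Listed genes at least 50% under members were counted per library, in the order wild-type males, knockout males and females. These counts stand beside 1.23% and 1.29%, 1.06% and 0.953%, and 2.34% and 3.48% of all genes. Many are of a few genes, and neither the difference between lists nor that between groups within a list was tested. The 8 Hox genes, which set segment identity, had none at 50% under members in any list, and all 8 were under wide peaks in every list. Of 24 segmentation genes, 3 and 3 were under members in wild-type males, 1 and 2 in the knockout, and 2 and 2 in females. Wide peaks covered 15 to 18 of them. The terminal gap gene tll was 89.9% and 90.6% under members in wild-type males and 78.4% and 77.3% in females, and in the knockout narrow peaks gave 49.2% and 80.2%. The gap gene hb had 55.2% and 62.0% under members in wild-type males, 43.0% and 0% in the knockout, and 0% and 36.8% in females.

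Of 22 T-box, GATA, NK and Iroquois genes, none were under members in the 4 male libraries and 3 and 6 were in females. Wide peaks covered 20 of these genes in each male library and 17 and 14 in females. The 6 genes were pnr, tin, caup, ara, slou and Hmx, and the last 3 reached 50% in the second female library alone. Among 21 forkhead, Sox, POU and zinc finger genes, 1 and 1 were under members in wild-type males, 2 and 2 in the knockout, and 5 and 7 in females. Wide peaks covered 13 and 13, 10 and 10, and 8 and 6 of them in the same order.

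Of 18 neural fate genes, 2 and 1 were under members in wild-type males, 4 and 5 in the knockout, and 2 and 5 in females. Wide peaks covered 8 and 9, 5 and 3, and 4 and 4 of them. The Snail family genes esg, wor and sna were wide in wild-type males and mid-width in at least 1 knockout and at least 1 female library. In females members covered 0% and 75.6% of esg, 78.2% and 100% of wor, and 0% and 100% of sna, with no wide peak over them. In the first knockout library wor was wholly under a wide peak. Among 18 genes of signalling ligands, 0 and 1, 2 and 1, and 0 and 0 were under members, and 6 and 6, 2 and 1, and 4 and 5 under wide peaks. The knockout libraries were below the other 4 in the latter count. In this list hh and Wnt10 were the 2 genes under members in a knockout library, with 68.7% and 40.8% for Wnt10.

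None of the 11 E(spl) genes was under a wide peak, and 3 and 4, 1 and 0, and 2 and 2 were under members. E(spl)m5-HLH, a Notch-induced repressor of neural fate, was wholly covered in wild-type males and females, wholly in 1 knockout library and not in the other. These genes are short and adjacent, so a single peak can cover several. Of 21 eye and appendage genes, 2 and 2, 2 and 0, and 2 and 2 were under members. The paired distal antenna genes gave the 2 in wild-type males, with 85.7% and 69.9% for dan and 97.0% and 100% for danr. In knockout males dan had 35.3% and 25.4%, and in females 78.4% and 64.1%. No member covered danr in the knockout or in females. Peaks of any width covered danr over 78.1% and 18.2% in the knockout and 70.6% and 72.3% in females.

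Genes of differentiated tissues were counted in the same way. Of 28 gut digestive genes 0 and 0, 1 and 0, and 2 and 5 were under members, among them Amy-d and Amy-p, whose near-identical copies make their values uncertain. Of 27 cuticle genes 0 and 0, 0 and 3, and 3 and 4 were, including the adjacent Ccp84A genes, which are similar copies and also uncertain. Wide peaks covered 8 and 8, 8 and 5, and 5 and 5 of the cuticle genes. Ccp84Aa, Ccp84Ab and Ccp84Ac were under wide peaks in both wild-type male libraries and the first knockout library. The counts under members were 1 and 0, 1 and 1, and 1 and 3 of 35 chemoreceptor genes, and 0 and 0, 1 and 3, and 2 and 5 of 30 testis genes. Wide peaks covered 3 and 3, 2 and 1, and 1 and 0 of the testis genes. They covered 1 and 1, 0 and 0, and 0 and 0 chemoreceptor genes, and 1 and 1, 1 and 1, and 0 and 1 gut digestive genes. Among 15 Polycomb group genes the sole case was Su(z)2, with 81.3% under members in the second knockout library and wide peaks in the other 5. None of the 12 neuronal function, 16 antimicrobial peptide and 28 ribosomal or housekeeping genes reached 50% under members in any list.

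**Figure D5:**
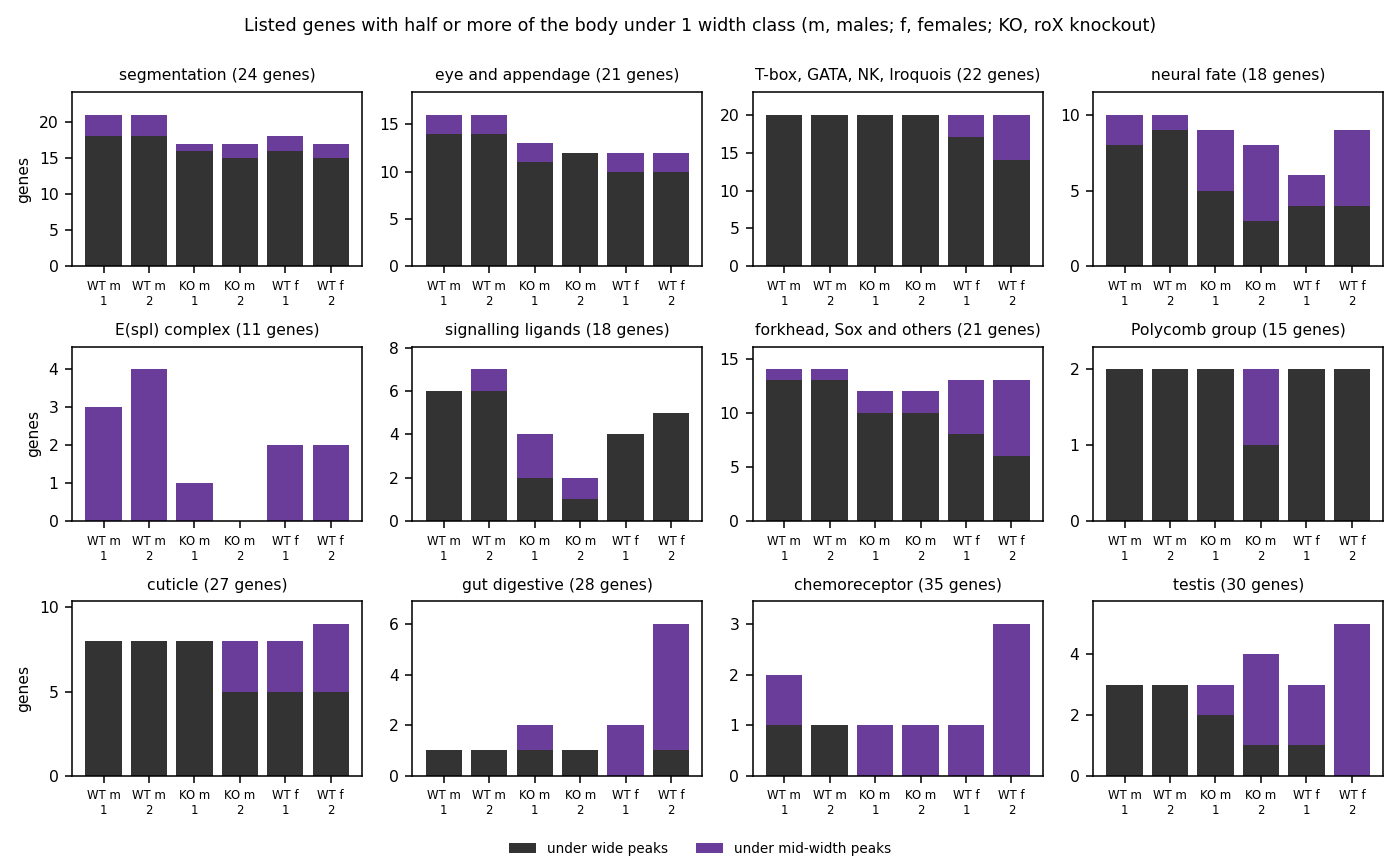
Number of listed genes with at least 50% of the body under wide (dark) or mid-width (purple) peaks, 1 panel per list and 1 bar per library. The T-box, GATA, NK and Iroquois panel shows members in the 2 female libraries alone (3 and 6 genes), and the E(spl) panel shows no wide peaks.

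The covered percent of gene bodies under peaks of any width was tested across 2770 genes with limma. A gene entered with a peak in at least 2 of the 6 libraries, and calls were made at an adjusted p under 0.05. In knockout males 50 genes (1.81%) were lower and 4 (0.144%) higher than in wild-type males, and the median difference over all genes was 0 points. In females 110 (3.97%) were lower and 391 (14.1%) higher, with a median of 6.22 points. A gene with peaks in the 2 female libraries alone could enter, and its difference could then only be positive. Female lists were also longer, with 7420 and 8764 autosomal peaks against 4313 and 3914 in wild-type males. How much of the 391 calls and of the positive median came from such genes was not tested, so neither is read as a gain in females. Among peaks with a −log10 q of at least 3, 157 genes were lower and 11 higher in females, so the balance of calls was turned, and 140 were lower and 11 higher in knockout males. The count of lower genes in knockout males was 33 without the second wild-type male library and 98 without the first knockout library. The count of higher genes in females was 71 and 68 without either wild-type male library, 226 without either knockout library, and 893 and 783 without either female library. Of 37 genes that met a member in all 6 lists, 3 (8.11%) were lower in knockout males and 6 (16.2%) in females, with none higher. That choice used the same lists, so nothing is drawn from these shares.

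The list counts below stand beside 1.81% lower in knockout males, and 3.97% lower and 14.1% higher in females, over all genes tested. No list was tested against these shares. Listed genes such as salm, Antp and Sox15 were 100% covered in both wild-type male libraries. Genes of that kind could only stay equal or fall, and equal replicates favour a call, so the direction of list counts is a description. Among 21 eye and appendage genes tested, 3 fell in knockout males and 9 in females, with median differences of -4.38 and -10.7 points. One was hth, a homeobox gene of proximal appendages, which was covered over 91.7% and 92.1% in wild-type males, 40.4% and 32.8% in the knockout, and 60.6% and 58.9% in females. Its difference in knockout males was -55.3 ± 3.03 points (SE, limma adjusted p = 0.01451), with 26.7% and 25.6% of the gene under members there. The call was lost without either wild-type male or either female library, and with the replicate number as a block. The appendage genes bab2 (-31.7 ± 1.95 points, limma adjusted p = 0.01975) and salm (-17.7 ± 1.79 points, limma adjusted p = 0.04954) also fell. Both were lost without any 1 of those 4 libraries and with the replicate number as a block. The salm call was also lost with genes peaked in at least 1 library, at a −log10 q of at least 3 and with gaps of up to 1 kb joined.

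Of 12 signalling ligand genes tested, 1 fell in knockout males and none in females, with medians of -20.4 and -5.82 points. It was Ser, a Notch ligand gene, covered over 77.3% and 76.1% in wild-type males, 26.0% and 15.9% in the knockout, and 63.6% and 72.1% in females. Members made up 45.1% and 57.4% of Ser in wild-type males and 0% and 5.4% in the knockout. The difference was -55.7 ± 4.99 points (SE, limma adjusted p = 0.04038). The call was lost without any single library of the 6, with the replicate number as a block and with genes peaked in at least 1 library. Of 9 E(spl) genes tested, none was called in knockout males although the median difference was -42.6 points. Of 14 neural fate genes none was called in knockout males and 3 fell in females. For 22 segmentation genes the counts were 0 in knockout males, and 2 lower and 1 higher in females. Of 8 Hox genes, 1 fell in knockout males and 3 in females. The gene in knockout males was Antp, which fell by 9.28 points (limma adjusted p = 0.04353) from 100% in both wild-type male libraries. Its call held under 3 of 11 alternatives.

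Other lists gave 1 lower call of 21 T-box, GATA, NK and Iroquois genes in knockout males and 5 in females, and 1 and 5 of 17 forkhead, Sox, POU and zinc finger genes. In the gut digestive, chemoreceptor and neuronal function lists 1 gene each was higher in females, of 11, 13 and 10 tested. Over all genes tested 14.1% were higher in females, so nothing is drawn from these single calls. None of the 3 lists had a call in knockout males. The cuticle, testis and Polycomb group lists had no call in either comparison, of 10, 8 and 3 tested. The same held for the 1 antimicrobial peptide gene tested, and no ribosomal or housekeeping gene had peaks in enough libraries. Both comparisons share the wild-type male libraries, and whether the knockout and female differences from them differ from each other was not tested. Of the named genes, 7 calls were made in knockout males and 34 in females. None of the 7 held under all 11 alternatives. In females Mal-A1, CG3955 and CG14297 held under the 10 alternatives whose fit included them. These 3 genes had no peak in any male library, so they entered the fit through the female libraries alone. CG3955 and CG14297 were also named for having no peak in wild-type males, so nothing is drawn from the 3.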

How the data were processed

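H3K27me3 chromatin immunoprecipitation was sequenced in 6 libraries of larvae of the third instar. Values of the 3 inputs were not used. The submitters' processing notes name Bowtie2 2.4.5, Trimmomatic 0.39, deepTools 3.5.1, SAMtools 1.13 and Picard, and the build dm6. Which program called the peaks, and whether it used the inputs, is not given in the sources used here. The authors deposited 1 list for each library, so replicates were not pooled. Per peak, the authors' lists hold a display score, a fold enrichment (a ratio), a −log10 p and a −log10 q value. These deposited −log10 values reach down to a q of 0.099. The fold and score are the authors' own and were compared within lists only.

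Widths, gaps and overlaps were computed with Python 3.11.15 and pandas 2.3.3. Gene bodies came from the RefSeq table of the Release 6 assembly, which gives no strand, so gene starts and sequences were not used here. Lists of 370 symbols matched 330 genes on the 4 arms, 8 through synonyms. Paired values of 6 libraries were compared by exact sign-flip permutation, two-sided. Covered percents were fitted with limma 3.58.1 on group means of all 6 libraries, with Benjamini-Hochberg adjustment over all genes. On simulated data this fit called more unchanged genes than its adjusted threshold allows, and the limit set for that check was loosened after its first run. The offset that limma adds to near-zero variances favours genes whose replicates are almost equal.

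Named genes were those at least 50% under members in all 6 lists; those under members in 1 group with no peak in the other, or under wide peaks in 1 group and members in the other, up to 6 per comparison and direction, spaced by more than 10 kb (all are named for counts of 7 or fewer); and members of the lists. CG34433 and nAChRbeta3 fell outside this rule and were named after their values were seen. Regions were the 5 longest with members in all 6 lists and no wide peak, and up to 3 per group with no peak in the other 4 lists. The members and lists were chosen with earlier results of these data known. Alternatives were other thresholds, widths, joined gaps, overlaps, list lengths, transformations, a replicate block, and each library left out. Position next to the centromere and overlap with wide wild-type peaks were added after the data were seen.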

Additional observations from a re-analysis of the deposited data

How the results depend on the processing

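There were 99 alternatives that left out no library. Of these, 60 kept their call or moved by less than a set spread, 35 moved further, 1 lost its call and 3 reversed. The spread was that between replicates. For shares of members that met a peak it was that over the pairs of lists between groups. For limma counts the limit was 1.5 times. Causes were not tested. The number of members in females against wild-type males, 0.33 on the log2 scale, was -0.27 for peaks with a −log10 q of at least 3, 0.13 from 3000 bp, 0.72 in lists of equal length and 1.07 without the 5 Mb next to the centromere. For knockout males, -0.032 became -0.69 at that q, 0.59 in lists of equal length and 0.039 without the 5 Mb. Wild-type male members meeting a knockout peak, 85.2% on average, were 33.0% at that q, 91.3% from 3000 bp, 45.3% with at least 50% of the member covered and 78.0% without the 5 Mb. For female lists, 76.9% became 22.2%, 84.8%, 36.1% and 85.7%. Knockout members meeting a wide wild-type male peak, 34.3%, became 45.5% from 3000 bp and 55.6% without the 5 Mb. For female members, 33.3% became 76.6% at that q, 28.1% with gaps joined and 47.7% from 3000 bp. Gene overlap against narrow peaks, -7.56 points, was 0.0893 at that q (exact permutation p = 0.9375), and the gap, -0.23, was -0.079 with wide from 15000 bp (exact permutation p = 0.28125). The share within 10 kb in females minus wild-type males, 2.83 points, became 21.5 at that q, 7.11 from 3000 bp and -3.20 without the 5 Mb. In knockout males, -0.0021 became 2.08 with gaps joined, 1.56 from 3000 bp and 2.73 without the 5 Mb. With these, 4 of the 60 had the other sign. The share next to the centromere moved from -2.27 to -9.98 points in knockout males at that q. In females it moved from -34.0 to -38.5 at that q and to -20.6 with 3 Mb.

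Leaving out each library in turn, the log2 numbers were -0.12 to 0.05 (knockout) and 0.13 to 0.51 (female), the gap -0.24 to -0.18, and gene overlap -8.35 to -6.84 points. With 5 libraries the exact permutation test cannot go below p = 0.0625, which each gave. The limma counts were 33 to 98 lower and 2 to 27 higher in knockout males, and 37 to 130 lower and 68 to 893 higher in females; a lone library was assumed to vary like the other groups. In knockout males, lower and higher calls were 140 and 11 at that q and 80 and 16 on the arcsine scale, and higher calls were 2 with genes peaked in at least 1 library. Higher calls in females were 258 with such genes, 11 at that q (beside 157 lower) and 680 on the arcsine scale. With the replicate number as a replicate block, 16 genes were lower and 1 higher in knockout males, and 36 lower and 155 higher in females. Same-numbered libraries deviated together with correlations of only -0.04 to 0.01, so the numbers were not taken as a pairing. Unadjusted p was under 0.05 for 348 genes in knockout males and 1002 in females.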
